A study of Mus musculus with 15 samples.

Results

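The genes described here encode the enzymes that attach glutathione, glucuronic acid or sulfate to small molecules. They were taken by symbol, as every protein-coding gene of the Gsta, Gstk, Gstm, Gsto, Gstp, Gstt and Gstz families, the microsomal Mgst genes, the Ugt1, Ugt2 and Ugt3 families and the Sult genes. The rule found 67 of the 54532 genes in the table, of which 22 were Gst, 3 Mgst, 21 Ugt and 21 Sult genes. The rule used symbols alone.

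Glutathione S-transferases (GSTs) join the thiol of glutathione to electrophilic compounds, and the conjugates are trimmed at the brush border of the proximal tubule and leave in urine as mercapturates. UDP-glucuronosyltransferases (UGTs) sit in the endoplasmic reticulum and transfer a sugar, mostly glucuronic acid from UDP-glucuronate. Cytosolic sulfotransferases (SULTs) transfer sulfate from the donor PAPS to phenols, catecholamines, steroids and drugs. In the kidney, much of this capacity lies in proximal tubule cells.

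RNA was sequenced from kidney tissue of 15 male C57BL/6 mice, 8 weeks old at the start, in 3 groups of 5. The control group (C) was fed a normal diet, and the model group (M) ate 0.25% adenine for 4 weeks and a standard diet up to week 8, which gives a chronic kidney disease (CKD) with tubular injury and fibrosis. The AA group had the same adenine course and received 30 mg/kg of asiatic acid, a triterpenoid of the herb Centella asiatica, by gavage every day. The C and M groups were gavaged with the vehicle, and none of the 3 groups received asiatic acid without adenine. Values are FPKM, the fragments counted on a gene scaled to its length and to a total for the library, so levels can be compared between genes. The total that the values imply was not the number of fragments they add up to. It was 32117600 against 18165587 in C mouse 1 and 11604300 against 17895231 in M mouse 1. The FPKM of a library summed to 263859 to 463739 (C), 412144 to 1171210 (M) and 460489 to 1481920 (AA). Levels in different groups are therefore not on equal totals.

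The libraries were not alike in depth. Fragments outside the mitochondrial genome, recovered from the spacing of the FPKM values, numbered 6951352 to 13576620 per library (C), 2077644 to 7142900 (M) and 2225755 to 4271183 (AA). Mitochondrial genes held 53 to 62.5% (C), 64 to 86.8% (M) and 69.2 to 87.2% (AA) of all fragments. M mice 1 to 3 stood apart with 10068 to 12222 genes above 0, where the other 12 libraries had 18695 to 25460. The labels name no batch, so the DEGs and the larger differences that involve the M group are also given for M mice 4 and 5 alone. Kidney markers were present, where the proximal tubule phosphate transporter gene Slc34a1 reached 71 to 905.2 FPKM in C mice, the loop of Henle gene Umod 15.4 to 50.4 and the collecting duct channel gene Aqp2 20.6 to 436.9. In the M and AA groups Slc34a1 was at 0.184 to 16.9 and 2.62 to 4.59 FPKM. C mice 1 and 3 stood apart from the other controls, with the collecting duct genes Aqp2 at 254.6 and 436.9 FPKM and Aqp4 at 23.7 and 42.7, where C mice 2, 4 and 5 had 20.6, 21.5 and 29.6 FPKM of Aqp2 and 0.842, 0.308 and 1.49 of Aqp4. They had the lowest Slc34a1 of the group, 71 and 106 FPKM against 139.7 to 905.2. Whether these samples held unequal parts of the kidney was not tested, and fits with C mice 2, 4 and 5 alone were added after the data were seen. With those controls the same 3 genes of the family were DEGs between M and C, and the same 8 and Ugt2b38 between AA and C. These were 3 of 37 and 9 of 37 genes tested, all lower. Of all genes tested, 333 of 17079 and 4445 of 19689 were DEGs, of which 317 and 2272 were lower.

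Most of the family had low FPKM values. Of the 67 genes, 14 were above 0 in all 15 libraries, 15 had a mean of at least 5 FPKM and 15 were listed at 0 in every library. The genes at 0 throughout were Ugt1a6b, Ugt1a8, Ugt1a9, Ugt2a1, Ugt2a2 and Ugt2b36 among the Ugt genes, and Sult1c1, Sult1e1, Sult2a1, Sult2a2, Sult2a3, Sult2a5, Sult2a7, Sult2a8 and Sult6b2 among the Sult genes. Other genes overlap 59.2 to 98.8% of the exon length of the Ugt1a and Ugt2a genes at 0. Reads there may not have been assigned to them, so their 0 need not mean low expression. The number of the 67 genes above 0 in a library was 38 to 46 for C and 34 to 40 for AA. M mice 1 to 3 had 28, 22 and 26 of these genes above 0 and M mice 4 and 5 had 40 and 45, which goes with the smaller number of all genes seen in those libraries.

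**Figure D1:**
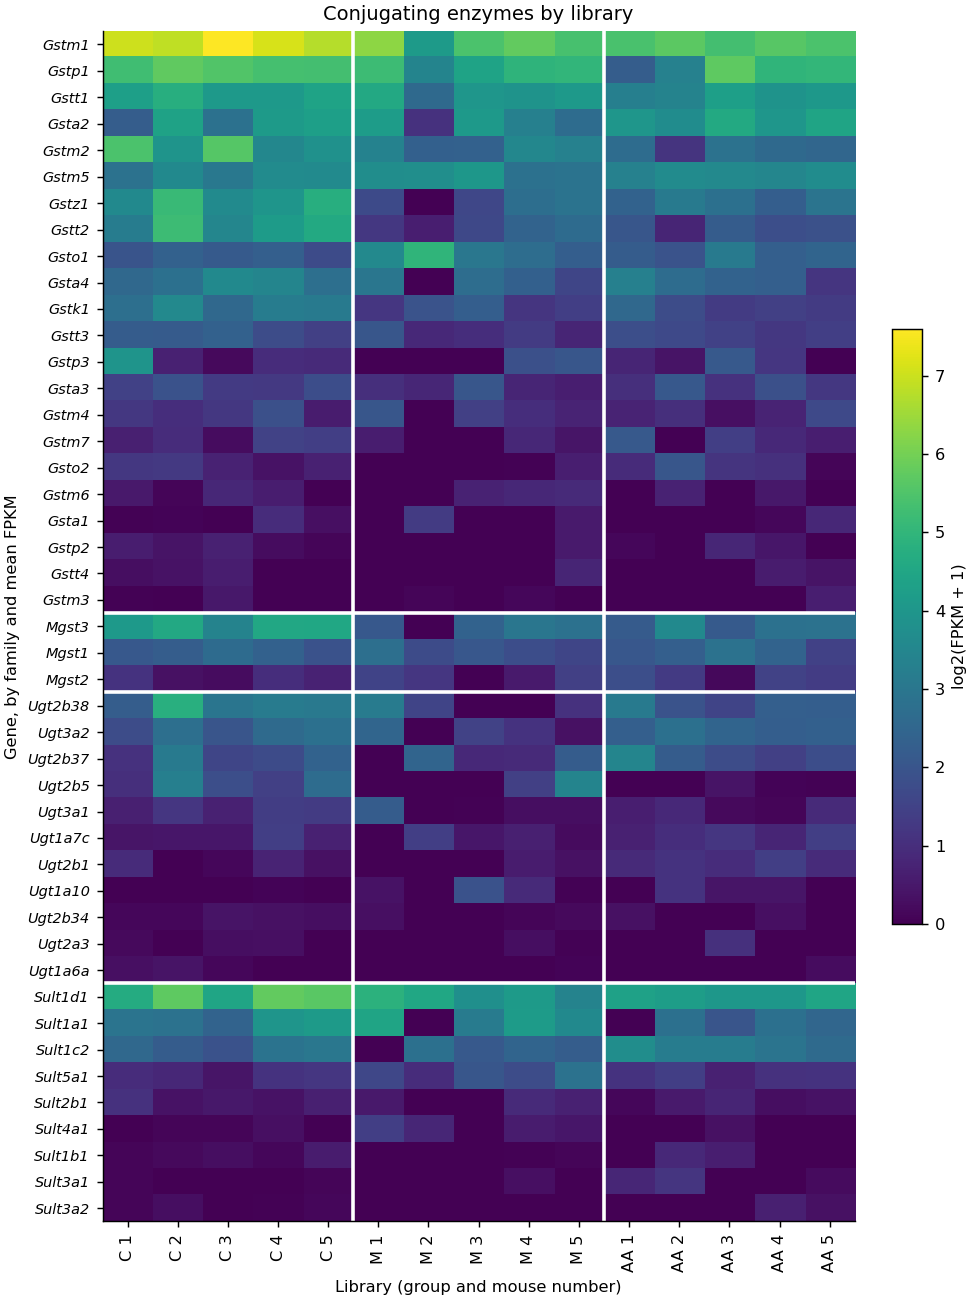
Levels of the conjugating enzyme genes in each library, as log2(FPKM + 1) in colour, for genes above 0 in at least 5 of the 15 libraries. Rows are ordered by family (Gst, Mgst, Ugt, Sult, separated by white lines) and by mean FPKM, columns are the 5 mice of each group, and Gstm1 is the brightest row in C mice.

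The Gst genes carried most of the signal, and their summed level was lower in both adenine groups. Summed over its 22 genes, Gst expression was 317.7 ± 35.3 (SD, n = 5) FPKM in the 5 C mice, 144.6 ± 43.2 (SD, n = 5) in M mice and 144.7 ± 26.1 (SD, n = 5) in AA mice. Every C library was above every M and AA library, while the M and AA libraries overlapped. Gstm1, the main mu-class gene, made up 34.2 to 52.6% of this sum in C mice, 19.2 to 38.1% in M mice and 21.5 to 40.8% in AA mice. The summed Mgst genes were at 15 to 27.6 FPKM in C mice, 3.65 to 11.1 in M mice and 9.2 to 16.5 in AA mice, where every C library was above every M library and AA mouse 2 was above the lowest C library. The Ugt sums were 10.7 to 50.9, 5.85 to 16.6 and 12.6 to 24.7 FPKM and the Sult sums 29.3 to 76.6, 27.2 to 53.2 and 28.7 to 36.2 FPKM in the C, M and AA groups, and these ranges overlapped.

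**Figure D2:**
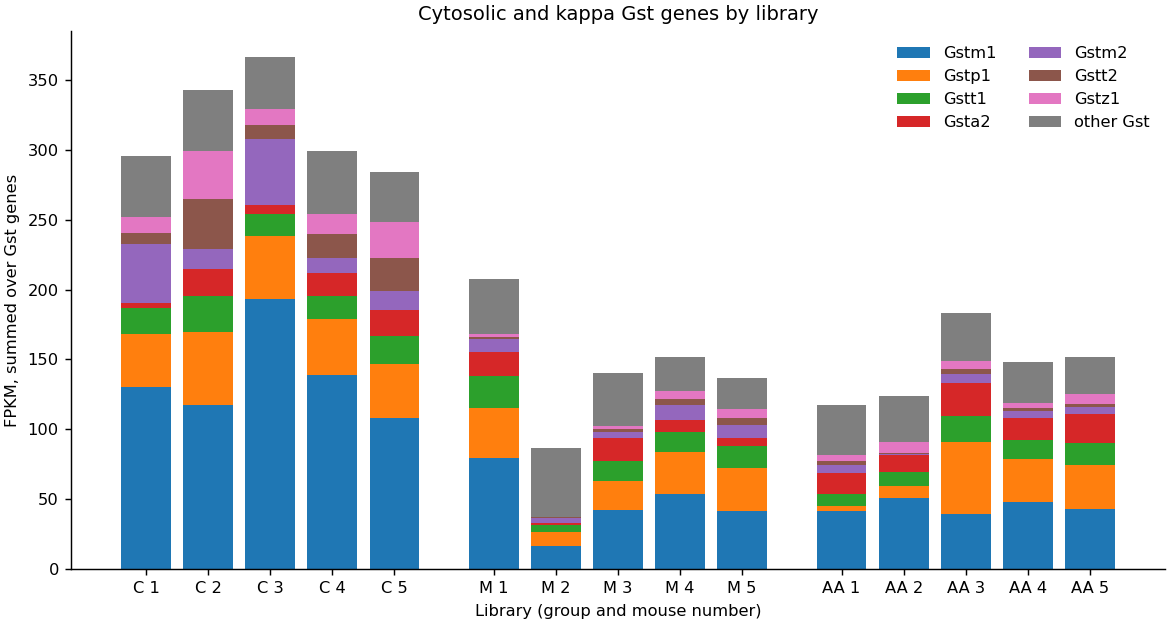
Summed FPKM of the 22 Gst genes in each of the 15 libraries (x axis, group and mouse number), split by gene, with 7 genes drawn apart and the other 15 together in grey. The C bars reach 284 to 367 FPKM, all above the M bars (86.5 to 208) and the AA bars (117 to 183).

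Genes were compared between groups on log2(FPKM + 1) with limma, using every gene with FPKM above 0 in 5 or more of the 10 libraries. A differentially expressed gene (DEG) had a p not above 0.05 after Benjamini-Hochberg adjustment over the whole table and a log2 fold change of 1 or more in size. Between the M and C groups, 40 of the 67 genes could be tested, 32 of them were lower in M, and 3 were DEGs, all lower. Among all 21153 genes tested, 1.11% were DEGs lower in M. Between the AA and C groups, 8 of 41 genes were DEGs, all lower in AA, against 9.61% of all 21898 genes tested. Between the AA and M groups, 1 of 37 genes was a DEG and was higher in AA, against 11.7% of all 19798 genes tested. The 3 comparisons share groups and are therefore not independent. In bulk kidney tissue, fewer cells of a type and less RNA per cell cannot be told apart.

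The 9 genes that were DEGs in any comparison were 5 Gst genes, Mgst3, 2 Ugt genes and Sult1d1. RefSeq promoter windows on GRCm38.p6, 250 bases before to 50 bases after the start of the gene, were at hand for 59 of the 67 genes. They are shown for 5 of the 8 genes that were lower in AA than in C, as examples from the Gst, Mgst and Sult families, with the first listed window where a gene has several, and capitals mark the motifs searched. Gstz1 lies on the plus strand at chr12:87146915-87147214 and Gstk1 on the plus strand at chr6:42245685-42245984. The windows of Gstm1 (chr3:108017924-108018223), Mgst3 (chr1:167393792-167394091) and Sult1d1 (chr5:87568957-87569256) are on the minus strand and are written 5′ to 3′ along the gene.
Gstz1: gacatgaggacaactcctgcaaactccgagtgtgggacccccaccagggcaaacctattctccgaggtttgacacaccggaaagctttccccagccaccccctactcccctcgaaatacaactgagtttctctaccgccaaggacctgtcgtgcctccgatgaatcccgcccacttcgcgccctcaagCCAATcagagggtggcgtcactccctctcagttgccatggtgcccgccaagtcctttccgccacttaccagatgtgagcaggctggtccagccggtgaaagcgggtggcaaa
Gstk1: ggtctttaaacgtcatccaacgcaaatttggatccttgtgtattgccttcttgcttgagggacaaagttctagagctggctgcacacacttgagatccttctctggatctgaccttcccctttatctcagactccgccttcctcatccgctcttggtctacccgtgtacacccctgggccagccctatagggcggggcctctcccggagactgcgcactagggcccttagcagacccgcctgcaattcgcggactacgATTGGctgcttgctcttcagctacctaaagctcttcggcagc
Gstm1: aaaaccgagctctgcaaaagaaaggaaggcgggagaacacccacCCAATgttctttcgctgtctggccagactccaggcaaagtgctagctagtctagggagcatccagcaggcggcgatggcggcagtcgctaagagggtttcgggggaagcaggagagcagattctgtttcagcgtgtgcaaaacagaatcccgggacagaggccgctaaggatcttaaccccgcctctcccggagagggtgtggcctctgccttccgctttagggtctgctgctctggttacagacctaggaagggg
Mgst3: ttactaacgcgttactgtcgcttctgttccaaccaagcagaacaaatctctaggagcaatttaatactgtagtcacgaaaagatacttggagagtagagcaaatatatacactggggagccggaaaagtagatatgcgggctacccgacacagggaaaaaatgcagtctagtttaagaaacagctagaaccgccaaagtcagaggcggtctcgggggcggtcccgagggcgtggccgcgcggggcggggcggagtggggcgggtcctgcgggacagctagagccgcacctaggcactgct
Sult1d1: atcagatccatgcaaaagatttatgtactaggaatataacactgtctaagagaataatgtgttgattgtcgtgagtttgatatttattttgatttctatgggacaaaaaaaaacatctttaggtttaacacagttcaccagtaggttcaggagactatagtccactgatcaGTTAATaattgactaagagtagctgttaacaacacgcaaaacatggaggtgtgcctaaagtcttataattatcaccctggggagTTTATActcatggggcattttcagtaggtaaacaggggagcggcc

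A CCAAT box stood in the Gstz1 and Gstm1 windows on the strand shown and in the Gstk1 window on the other strand, where it reads as its reverse complement. The Sult1d1 window held GTTAAT, a half-site of the tubule factor HNF1, and TATAAA on the other strand, and the Mgst3 window held none of the 6 motifs. Of the windows not shown, those of Gstm2 and Ugt2b5 and further ones of Gstm1 and Gstz1 also held CCAAT, and that of Gstm1 held TATAAA as well. Searched on both strands, CCAAT was found in 42.3% of the 71 windows of the family (some genes have more than 1) and in 37.4% of all 32851 windows. GTTAAT was found in 19.7% against 7.1%, the AP-1 motif TGANTCA in 19.7% against 7.81% and TATAAA in 22.5% against 13.6%. The antioxidant response element core TGACNNNGC was found in 5.63% against 12.4% and the HNF4 motif CAAAGTCCA in 1.41% against 0.475%. Paralogs share promoter sequence, and these shares are descriptions of letters in the windows.

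Gstt2 encodes a theta-class GST and lies at chr10:75831114-75837424 on the minus strand (ENSMUSG00000033318, positions on GRCm38). In the C group, it was at 8.09, 35.7, 10.2, 17.2 and 23.4 FPKM. In the M group, the values were 1.33, 0.553, 2.13, 4.4 and 5.26 FPKM in mice 1 to 5, and in AA mice 3.09, 0.72, 3.59, 2.56 and 2.7 FPKM. All 5 C mice were above all M and AA mice, and within the M group mice 4 and 5 were the highest. Gstt2 fell in M mice by 2.42 on the log2 scale (SE 0.47, limma adjusted p = 0.0287) and in AA mice by 2.39 relative to C (SE 0.39, limma adjusted p = 0.00123). It had the largest fall relative to C of the family in AA mice, and AA and M differed by 0.032 ± 0.42 (SE, limma adjusted p = 0.971), or by -0.79 with M mice 4 and 5 alone.

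Gstz1 encodes the zeta-class enzyme that isomerizes maleylacetoacetate in tyrosine breakdown, and lies at chr12:87147165-87164723 on the plus strand (ENSMUSG00000021033). Its FPKM was 11.2, 34.5, 11.4, 14.7 and 26.3 in C mice, 2.24, 0, 2.1, 5.75 and 6.44 in M mice and 4.24, 7.71, 5.93, 3.81 and 6.55 in AA mice. The C group did not overlap with either of the others, and M mouse 2 was listed at 0. The log2 fold change was -2.43 ± 0.53 (SE, limma adjusted p = 0.0415) for M relative to C and -1.53 ± 0.33 (SE, limma adjusted p = 0.00451) for AA relative to C. The difference between AA and M, 0.90 ± 0.48 (SE, limma adjusted p = 0.214), did not pass the test and was -0.13 against M mice 4 and 5 alone. Other genes overlap 12.2% of its exon length, so some reads may belong to Pomt2 or Gm6566.

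Gstk1 encodes the kappa-class enzyme of mitochondria and peroxisomes, at chr6:42245935-42250447 on the plus strand (ENSMUSG00000029864). The C mice had 5.81, 11.02, 4.9, 8.1 and 7.81 FPKM and the M mice 1.29, 2.87, 3.81, 1.28 and 1.68 FPKM, without overlap. The AA mice had 4.9, 2.42, 1.5, 1.72 and 1.48 FPKM, of which the first reached the lowest C value. The log2 fold change was -1.44 ± 0.31 (SE, limma adjusted p = 0.0422) between M and C, and it was as large with M mice 4 and 5 alone (-1.74). Between AA and C it was -1.37 ± 0.29 (SE, limma adjusted p = 0.00416). The level rested on few fragments in the adenine groups, 22 to 77 per library in M mice and 32 to 98 in AA mice, against 274 to 651 in C mice.

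The 3 calls between M and C depended on single libraries. Leaving out any one of C mice 2, 4 and 5 or M mice 1, 2 and 3 left 0 genes of the family past the adjusted threshold, where 14 to 17 genes had an unadjusted p under 0.05 by limma. The whole table lost DEGs in the same fits, with 4 to 157 against 291 when all 10 libraries were used. In these fits 2514 to 3156 genes of the table had an unadjusted p under 0.05 by limma. Over all 10 fits with a library left out, the estimate for Gstt2 lay between -2.66 and -2.15. With M mice 4 and 5 alone, 0 of the 39 genes of the family tested were DEGs by limma and 14 had an unadjusted p under 0.05. Of all 20868 genes tested, 0 were DEGs and 2489 had an unadjusted p under 0.05 by limma. The estimates with M mice 4 and 5 were -1.59 for Gstt2, -1.40 for Gstz1, -1.498 for Gstm1 and -1.31 for Mgst3. With M mice 1 to 3 alone, 9 of the 37 genes tested were DEGs, where 3404 of all 17103 genes tested were. Scaling moved the all-gene median between M and C from -0.12 to -0.58 in TPM and to 0.24 with each library centred on its median, and that of the 40 genes from -0.49 to -1.21 and -0.13, below it each time. The DEGs over all genes, 57 higher and 234 lower, became 31 and 1578 in TPM and 132 and 207 with centring.

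Gstm1 and Gstm2, neighbours on chromosome 3 at chr3:108012255-108017973 (ENSMUSG00000058135) and chr3:107981702-107986453 (ENSMUSG00000040562), encode mu-class GSTs. Gstm1 was at 130.1, 117.2, 192.9, 139.1 and 107.6 FPKM in C mice, 79.04, 16.6, 42.2, 53.7 and 41.1 in M mice and 41.3, 50.4, 39.4, 48.1 and 42.7 in AA mice. C did not overlap with either group, and the AA values lay close together (SD 4.69 FPKM, n = 5) compared with those of C (SD 33.3 FPKM, n = 5). Gstm1 fell by 1.58 on the log2 scale between C and AA (SE 0.22, limma adjusted p = 0.000491). Between C and M the log2 fold change was -1.67 ± 0.39 (SE, limma adjusted p = 0.0554), just outside the threshold. Of the 31-base words of Gstm1, 28.8% recur in other genes, most in Gstm2-ps1, so part of its level is uncertain.

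Gstm2 varied widely among the controls, at 42.3, 14.3, 47.3, 10.5 and 13.4 FPKM, against 9.29, 4.05, 4.12, 10.4 and 9.14 in M mice and 5.47, 1.19, 6.35, 5.04 and 4.73 in AA mice. C mice 1 and 3, the controls with the high Aqp2 and Aqp4, were more than 2 times as high as the other 3, and all 5 C mice were above the M and AA mice. The log2 fold change was -2.10 ± 0.46 (SE, limma adjusted p = 0.00504) between AA and C, and -1.41 with C mice 2, 4 and 5 alone, where it was also a DEG. Between M and C it was -1.48 ± 0.46 (SE, limma adjusted p = 0.137), which did not pass the test, and it was -0.79 with C mice 2, 4 and 5 alone and -1.04 with M mice 4 and 5 alone.

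Mgst3 encodes a microsomal GST with peroxidase activity, at chr1:167371966-167393841 on the minus strand (ENSMUSG00000026688). Its FPKM was 15.95, 23.1, 9.54, 22.4 and 21.8 in C mice, 3.3, 0, 4.23, 6.93 and 6.19 in M mice and 3.55, 11.1, 3.4, 6.2 and 6.23 in AA mice. The M values lay below all C values with mouse 2 at 0, and AA mouse 2 was above the lowest C value. Mgst3 fell between C and AA by 1.502 on the log2 scale (SE 0.33, limma adjusted p = 0.00489), and between C and M the log2 fold change was -2.16 ± 0.51 (SE, limma adjusted p = 0.0597). Mgst1, the abundant microsomal GST of liver, was at 2.78 to 5.26 FPKM in C, 2.01 to 5.91 in M and 1.79 to 6.22 in AA, with overlapping groups and log2 fold changes from -0.26 to 0.23.

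The other abundant Gst genes did not pass the test in any comparison. Gstp1, the pi-class gene, was at 37.9, 52.1, 45.1, 40 and 39.1 FPKM in C mice and 35.97, 9.86, 20.4, 30.04 and 31.02 in M mice, all M values below all C values. The AA group spread from 3.69 to 51.1 FPKM, with mice 1 and 2 at the low end and mouse 3 in the range of the controls. The log2 fold change of Gstp1 was -0.84 ± 0.35 (SE, limma adjusted p = 0.257) for M and -1.19 ± 0.55 (SE, limma adjusted p = 0.106) for AA, both relative to C, and that for M was -0.47 with M mice 4 and 5 alone. The table lists its near copy Gstp2 apart, and 38.5% of the words of Gstp1 occur in other genes. Gstt1, a theta-class gene, had 16.3 to 25.9 FPKM in C, 5.01 to 23.1 in M and 8.7 to 18.8 in AA. Gsta2, an alpha-class gene that shares 60.7% of its words with other genes, had 3.7 to 19.7, 1.14 to 17.3 and 12.1 to 23.6 FPKM, and its difference between AA and M was 1.08 ± 0.51 (SE, limma adjusted p = 0.166), or 1.15 with M mice 4 and 5 alone.

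Counted without a fold threshold, 7 of the 40 genes tested had every M mouse below every C mouse, which were Gstk1, Gstm1, Gstm2, Gstp1, Gstt2, Gstz1 and Mgst3. Of all genes tested, 3.67% did. The median log2 fold change between M and C was -0.57 over 20 Gst genes, -0.26 over 3 Mgst genes, -0.37 over 10 Ugt genes and -0.18 over 7 Sult genes, against -0.12 over all genes. With M mice 4 and 5 alone these medians were -0.50, -0.56, -0.26 and 0.20. The omega-class gene Gsto1, named after its values were seen, had the highest log2 fold change between M and C (1.21 ± 0.44 SE, limma adjusted p = 0.2), with 11.03, 30.7, 7.15, 5.53 and 3.86 FPKM in M mice and 2.34 to 4.13 in C mice, and did not pass the test. With M mice 4 and 5 alone its log2 fold change was 0.39, and with M mice 1 to 3 alone it was a DEG.

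**Figure D3:**
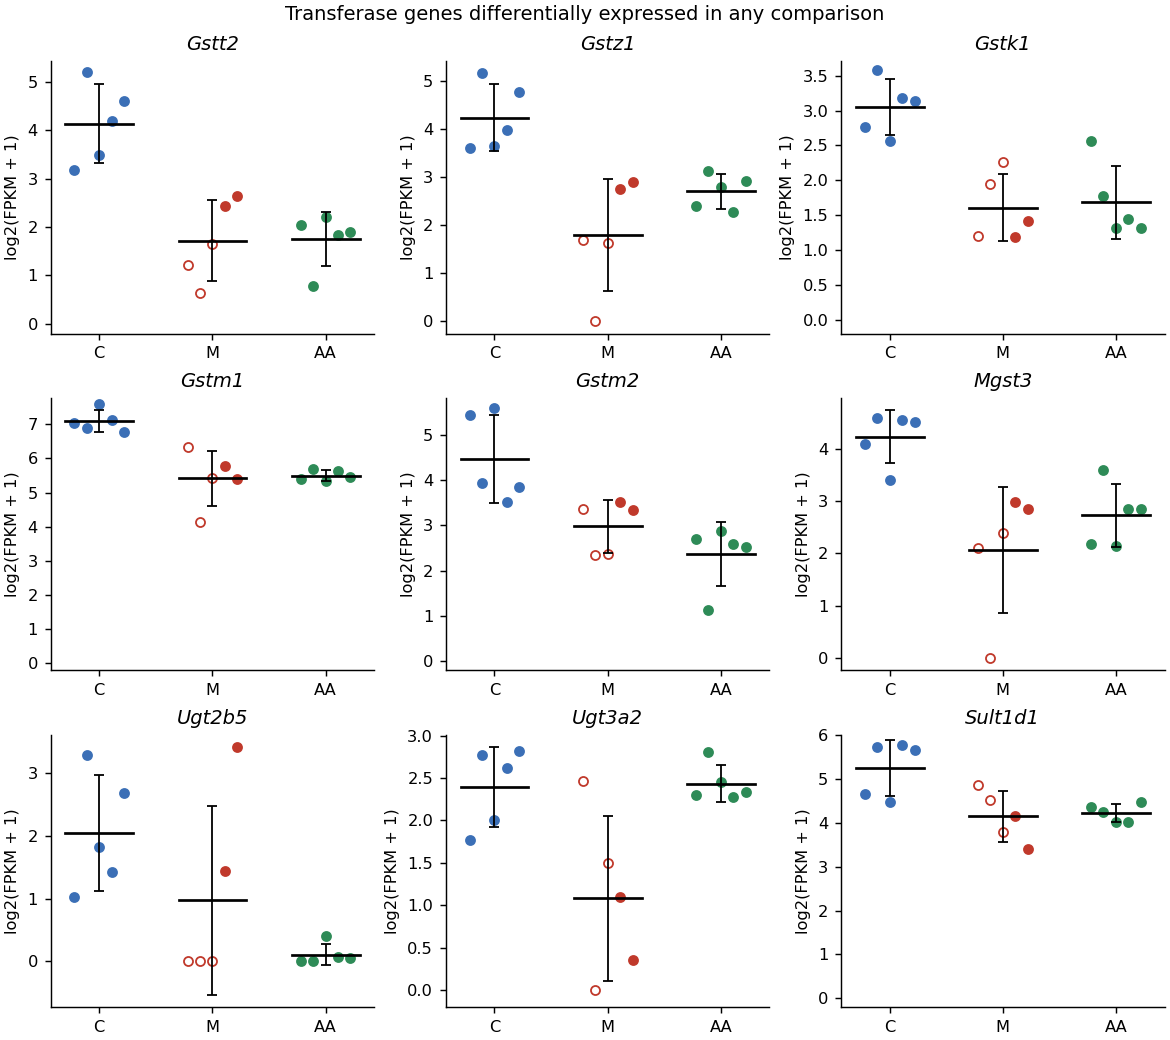
The 9 genes that were DEGs in any comparison, as log2(FPKM + 1) of each mouse (points, 5 per group), with the mean (line) and SD (bar). Open red points are M mice 1 to 3; the C values of Gstt2, Gstz1, Gstm1 and Gstm2 lie above all M and AA values, and the C and AA values of Ugt3a2 overlap above most M values.

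The Ugt genes had low levels, with 1 DEG between AA and M and 1 between AA and C. Ugt3a2, whose enzyme uses UDP sugars other than UDP-glucuronate, lies at chr15:9335550-9370955 on the plus strand (ENSMUSG00000049152). It was at 2.41, 5.81, 3.01, 5.12 and 6.03 FPKM in C mice, 4.53, 0, 1.83, 1.14 and 0.279 in M mice and 3.93, 6.01, 4.47, 3.84 and 4.06 in AA mice. The AA mice lay within the range of the C mice, as did M mouse 1, and the other 4 M mice were below it. Ugt3a2 rose between M and AA by 1.35 on the log2 scale (SE 0.42, limma adjusted p = 0.0392), and by 1.71 against M mice 4 and 5 alone, where it was also a DEG. Between M and C the log2 fold change was -1.31 ± 0.44 (SE, limma adjusted p = 0.172), or -1.67 with M mice 4 and 5 alone, and between AA and C 0.041 ± 0.25 (SE, limma adjusted p = 0.909). The call between AA and M held in 1 of the 10 fits that left out a library, the one without M mouse 1. Ugt3a2 was not a DEG between AA and M with a pseudocount of 0.1, with genes above 0 in any library, in TPM, without mitochondrial genes, with quantile normalization, with centring, with a replicate block, over protein-coding genes only or with M mice 1 to 3 alone. In the M group Ugt3a2 rested on 0 to 163 fragments per library.

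Ugt2b5, at chr5:87124960-87140318 on the minus strand (ENSMUSG00000054630), was at 1.04, 8.78, 2.53, 1.69 and 5.45 FPKM in C mice and 0, 0, 0.323, 0.0523 and 0.0334 in AA mice, without overlap. In the M group it was listed at 0 in mice 1 to 3 and was at 1.71 and 9.73 FPKM in mice 4 and 5, so that this group spanned the ranges of the others. Ugt2b5 fell between C and AA by 1.95 on the log2 scale (SE 0.37, limma adjusted p = 0.00269). It was not called between M and C (-1.08 ± 0.66 SE, limma adjusted p = 0.437), and with M mice 4 and 5 alone that difference was 0.38. Against the same M mice 4 and 5, Ugt2b5 was a DEG lower in AA, with a log2 fold change of -2.32. Of its 31-base words 56.4% occur in other genes, most in Ugt2b38, so reads could have been split between the copies.

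Ugt2b38 and Ugt2b37 encode enzymes of the same cluster. Ugt2b38 was at 3.69, 26.5, 6.72, 8.03 and 7.4 FPKM in C mice, 7.93, 1.92, 0, 0 and 1.14 in M mice and 7.65, 2.87, 1.97, 3.91 and 3.84 in AA mice. Ugt2b37 was at 1.13 to 7.62 FPKM in C, 0 to 4.45 in M and 1.72 to 10.04 in AA. The groups overlapped for both genes, and C mouse 2 had the highest C value of each. Ugt2b38 had a log2 fold change of -2.08 ± 0.61 (SE, limma adjusted p = 0.116) between M and C, -2.69 with M mice 4 and 5 alone, and 1.08 ± 0.54 (SE, limma adjusted p = 0.185) between AA and M. With M mice 4 and 5 alone it was 1.69 between AA and M, which passed the test. Ugt3a1, whose enzyme transfers N-acetylglucosamine, was at 0.583 to 1.59 FPKM in C, 0 to 3.61 in M and 0.0728 to 0.861 in AA, and M mouse 1 was the highest of all.

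Ugt2b1, named after its values were seen, was the 1 gene of the 37 with every AA mouse above every M mouse, against 11.9% of all genes tested. It was at 0.885, 1.16, 0.958, 1.66 and 0.893 FPKM in AA mice, on 27 to 88 fragments per library. In M mice 1 to 3, the libraries with few genes above 0, it was listed at 0, and in M mice 4 and 5 at 0.49 and 0.261 FPKM. The log2 fold change of Ugt2b1, 0.88 ± 0.21 (SE, limma adjusted p = 0.0122), was under the fold threshold, and was 0.61 against M mice 4 and 5 alone. Gsto2, also named after its values were seen, had 0.286 to 1.41 FPKM in C, 0 to 0.558 in M and 0.0801 to 3.07 in AA. M mice 1 to 3 were again at 0, but AA and M overlapped, with AA mouse 5 at 0.0801 and M mouse 5 at 0.558. The log2 fold change of Gsto2 was also under the fold threshold, 0.92 ± 0.30 (SE, limma adjusted p = 0.0494), or 0.72 against M mice 4 and 5 alone. The Ugt1a genes share their last exons, and between 50.3% and 82.7% of the exon length of each is overlapped by other genes, so their FPKM cannot be assigned to single enzymes.

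Sult1d1, a sulfotransferase of catecholamines, was the most abundant Sult gene and lies at chr5:87554645-87569027 on the minus strand (ENSMUSG00000029273). Its FPKM was 24.4, 51.8, 21.1, 53.7 and 49.3 in C mice, 28.3, 22.1, 12.8, 16.8 and 9.6 in M mice and 19.6, 17.9, 15.3, 15.2 and 21.3 in AA mice. C mice 2, 4 and 5 were above all others, and C mice 1 and 3 were within the range of the M group. These are the controls with the high Aqp2 and Aqp4. Sult1d1 fell between C and AA by 1.03 on the log2 scale (SE 0.29, limma adjusted p = 0.0178), a call that 5 of 10 fits with a library left out kept, and its log2 fold change was -1.49 with C mice 2, 4 and 5 alone. Between M and C the log2 fold change was -1.11 ± 0.38 (SE, limma adjusted p = 0.178), or -1.48 with M mice 4 and 5 alone.

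Sult1a1, which sulfates phenols, had 6.53, 6.34, 4.32, 14.5 and 16.5 FPKM in C mice, 20.7, 0, 7.96, 17.1 and 11.3 in M mice and 0, 5.96, 3.01, 6.06 and 4.74 in AA mice. M mouse 2 and AA mouse 1 were listed at 0, and the other AA mice were below the median of the C mice. Its log2 fold change was -1.23 ± 0.53 (SE, limma adjusted p = 0.0864) between AA and C and -1.05 ± 0.77 (SE, limma adjusted p = 0.372) between AA and M, the latter -1.87 against M mice 4 and 5 alone. Sult1c2, a sulfotransferase found in kidney and stomach, had 4.93, 3.63, 2.77, 6.39 and 7.16 FPKM in C mice, 0, 6.01, 3.35, 4.51 and 3.75 in M mice and 12.3, 8.05, 8.16, 6.55 and 5.18 in AA mice. The AA mice were on average the highest, and the difference from M (1.20 ± 0.47 SE, limma adjusted p = 0.0941) and from C (0.61 ± 0.28 SE, limma adjusted p = 0.102) did not pass the test, and the former was 0.78 against M mice 4 and 5 alone. Sult5a1 was at 0.354 to 1.3 FPKM in C, 0.953 to 6.32 in M and 0.618 to 1.68 in AA, with a log2 fold change of 0.94 ± 0.35 (SE, limma adjusted p = 0.205) between M and C, or 1.41 with M mice 4 and 5 alone.

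Between AA and M, 1 gene of the family passed the test. Of the 37 genes tested, 24 were higher and 13 lower in AA. In the limma fit, 6 of the 37 had an unadjusted p under 0.05, against 6360 of all 19798 genes tested. The median log2 fold change was 0.10 against 0.17 over all genes. By family it was 0.09 for the 18 Gst, 0.28 for the 3 Mgst, 0.47 for the 9 Ugt and -0.01 for the 7 Sult genes. No Gst, Mgst or Sult gene was a DEG in either direction, where 1 Gst, 0 Mgst and 3 Sult genes had an unadjusted p under 0.05. With each library centred on its median, the all-gene median became -0.35 and that of the family -0.41, 3 genes were DEGs lower in AA (Ugt2b5, Sult5a1 and the neuronal gene Sult4a1, the last named after its values were seen) and Ugt3a2 was not a DEG. Over all genes the same centring turned 2321 DEGs higher and 212 lower into 1213 higher and 1600 lower. Directions between AA and M are therefore relative to the scaling.

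Between AA and C, 5 of the 41 genes tested (Gstm1, Gstm2, Gstt2, Gstz1 and Ugt2b5) had every AA mouse below every C mouse, which is 12.2% of them against 12.5% of all genes tested. Of the 41 genes tested, 25 were lower in AA, with a median log2 fold change of -0.13 against 0.09 over all genes. The 8 calls did not involve the M libraries. All 8 were DEGs in each other scaling, filter, model and pseudocount that was run, and 7 to 9 genes were DEGs when a library was left out, with Gstk1, Gstm1, Gstm2, Gstt2, Gstz1, Mgst3 and Ugt2b5 among them each time. Over all genes, 3463 to 4770 were DEGs when a library was left out. Rescaling every library to the same sum (TPM) moved the all-gene median to -0.39, raised the number to 16 genes, all lower, and turned 2241 DEGs higher and 2105 lower over all genes into 862 and 5923.

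**Figure D4:**
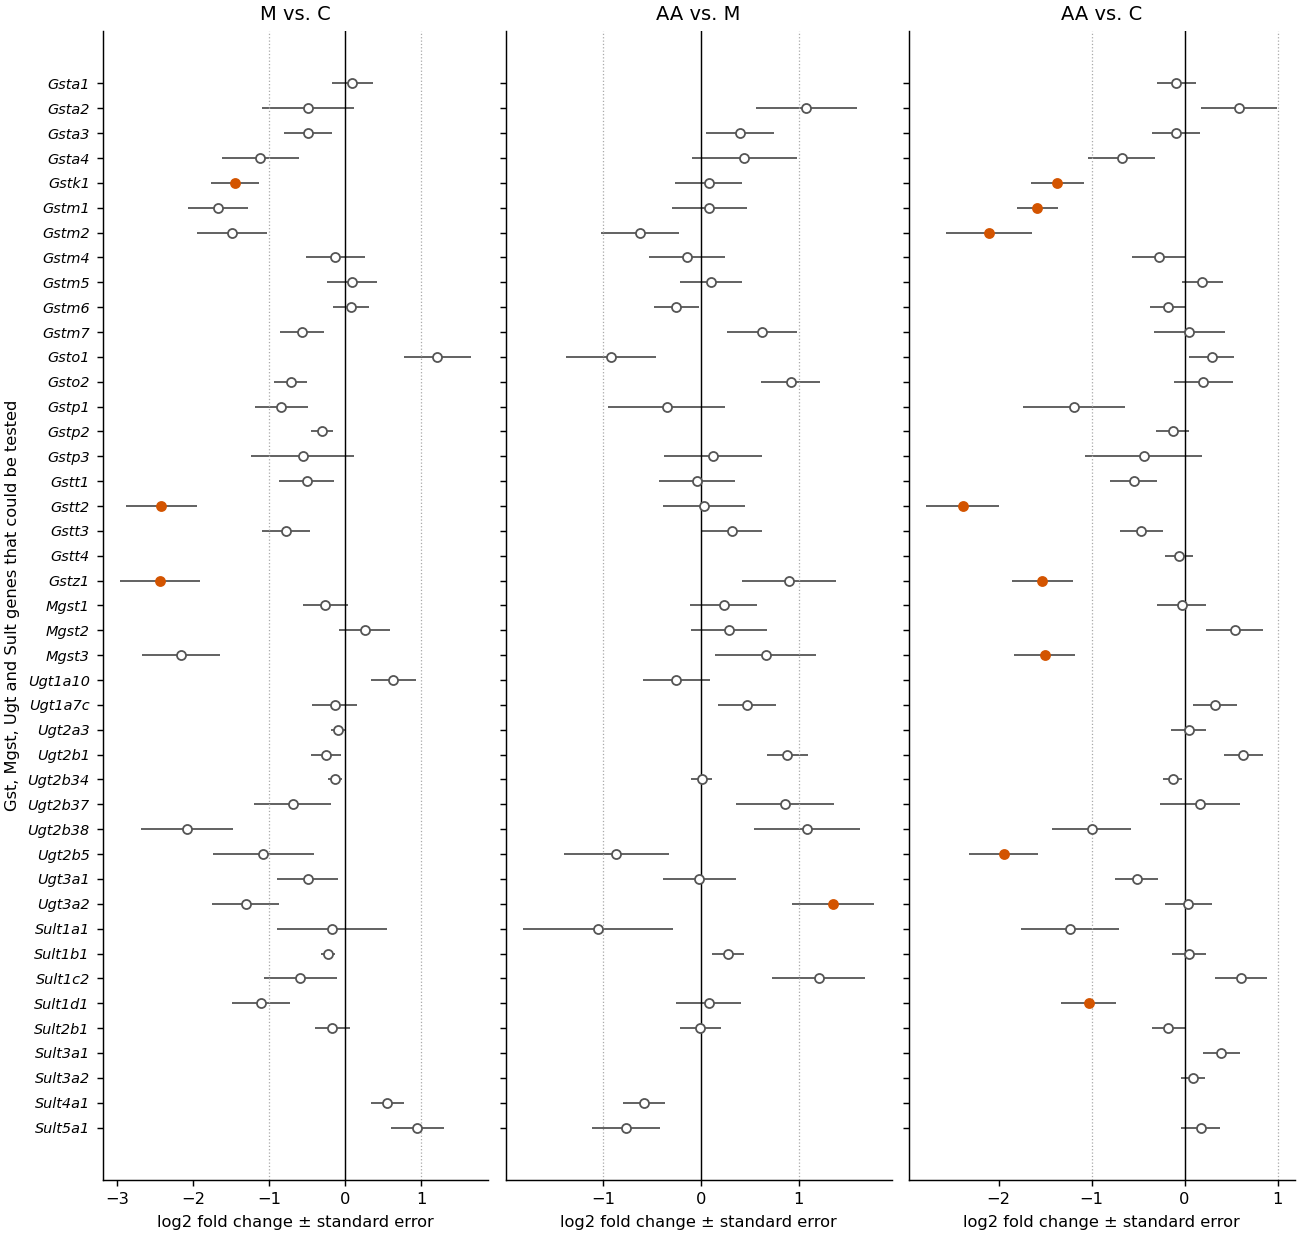
Log2 fold changes (points) with standard errors (bars) of each Gst, Mgst, Ugt and Sult gene that could be tested between M and C (left), AA and M (middle) and AA and C (right). Filled points are the DEGs (3, 1 and 8 genes), and dotted lines mark a log2 fold change of 1 in either direction; a row without a point was not tested in that comparison.

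Some genes that supply and use glutathione were also lower in the adenine groups. Of 19 genes for its synthesis, recycling and breakdown, 2 of 19 tested were DEGs lower in M than in C, 6 of 18 were lower in AA than in C and 0 of 17 passed between AA and M, where 4 had an unadjusted p under 0.05 in limma. Their median log2 fold changes were -0.73, -0.0086 and -0.73, against -0.12, 0.17 and 0.091 over all genes, in the order M against C, AA against M and AA against C. In the same order, 3493 of all 21153, 6360 of 19798 and 10243 of 21898 genes tested had an unadjusted p under 0.05 in limma. These shares stand beside the counts for this list and those below. Ggt1, which opens the breakdown of glutathione conjugates at the brush border, was at 73, 236.7, 58.6, 152.7 and 188.9 FPKM in C, 8.13, 0.617, 3.78, 34.1 and 37.8 in M and 7.38, 9.46, 10.8, 4.2 and 7.06 in AA, and M mice 4 and 5 were above all other M and AA mice. Its log2 fold change was -3.66 ± 0.79 (SE, limma adjusted p = 0.0407) between M and C and -3.89 ± 0.39 (SE, limma adjusted p = 0.000119) between AA and C. Gpx3, the secreted glutathione peroxidase that the proximal tubule makes, fell by 2.99 on the log2 scale in M (SE 0.54, limma adjusted p = 0.0229) and by 2.85 in AA (SE 0.43, limma adjusted p = 0.000813), from 1221 to 5939.9 FPKM in C to 172.1 to 711.3 in M and 308.8 to 459.6 in AA. With M mice 4 and 5 alone, the log2 fold changes between M and C were -1.76 for Ggt1 and -2.36 for Gpx3, and for Ggt1 the difference between AA and M was -2.12.

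Of the enzymes that make glutathione, the catalytic subunit gene Gclc was at 11.01 to 28.7 FPKM in C, 4.94 to 9.86 in M and 3.53 to 6.45 in AA, and passed only between AA and C (-1.45 ± 0.27 SE, limma adjusted p = 0.00231). The synthetase gene Gss was also lower in AA than in C (-2.13), as were Oplah, for 5-oxoprolinase (-2.34), and Nat8, which acetylates cysteine conjugates (-2.37). The modifier subunit gene Gclm was at 6.46, 8.02, 5.97, 8.66 and 8.75 FPKM in C, 4.85, 2.21, 5.35, 3.89 and 2.91 in M and 7.14, 9.8, 5.1, 6.36 and 7.51 in AA, with M below C throughout. Its log2 fold change was -0.86 ± 0.28 (SE, limma adjusted p = 0.155) between M and C and 0.78 ± 0.31 (SE, limma adjusted p = 0.0944) between AA and M, and neither passed. With M mice 4 and 5 alone these values were -0.96 and 0.88. Glutathione reductase, Gsr, was at 3.34 to 5.18 FPKM in C, 3.18 to 14.6 in M and 7.09 to 9.26 in AA, where each AA mouse was above each C mouse (0.79 ± 0.19 SE, limma adjusted p = 0.00782), a difference under the fold threshold whose sign turned under TPM.

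Genes for the donors of the other reactions were compared in the same way. Of 6 genes for UDP-glucuronate supply and glucuronide removal, 0 were DEGs by limma in any comparison, with 0, 1 and 1 at an unadjusted p under 0.05 for M against C, AA against M and AA against C and medians of -0.037, 0.17 and 0.33. Ugdh, which makes UDP-glucuronate, was at 2.35 to 4.1 FPKM in C, 1.74 to 5.58 in M and 1.75 to 3.14 in AA. Of 10 genes for PAPS supply and sulfate handling, the sulfate transporter gene Slc26a1 was lower in M (-2.02 ± 0.39 SE, limma adjusted p = 0.0285) and in AA (-1.91 ± 0.37 SE, limma adjusted p = 0.00264) than in C. Between AA and M, the PAPS transporter gene Slc35b2 fell by 1.06 on the log2 scale (SE 0.28, limma adjusted p = 0.0202) and Bpnt1, whose enzyme clears the by-product of sulfation, rose by 1.04 (SE 0.32, limma adjusted p = 0.036). Slc35b2 was at 5.44, 4.25, 5.74, 3.68 and 4.42 FPKM in M mice and 1.51, 2, 2.83, 1.25 and 1.26 in AA mice, without overlap. Bpnt1 was at 5.97, 2.32, 3.99, 6.56 and 3.65 FPKM in M mice and 13.6, 8.65, 9.87, 7.81 and 10.01 in AA mice, also without overlap. Against M mice 4 and 5 alone the log2 fold changes were -0.89 and 0.87, under the fold threshold, and that of Slc26a1 between M and C was -2.04. The medians of the 10 genes were -0.30, 0.10 and -0.54. The PAPS synthase gene Papss2 was at 3.9 to 11.04 FPKM in C, 2.27 to 7.7 in M and 5.59 to 8.71 in AA.

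All 7 efflux transporter genes had lower estimates in M than in C and none was a DEG there by limma, with 3 at an unadjusted p under 0.05. Between AA and M none was a DEG either, with 1 at an unadjusted p under 0.05. Abcc6 (-1.52) and Abcg2 (-1.06) were DEGs lower in AA than in C. The medians of the 7 genes were -0.80, 0.053 and -0.80 in the same order. Of 13 other conjugating and detoxifying enzymes tested, 3 were DEGs lower in M than in C. They were Glyat, which joins glycine to acyl groups (-2.21), the soluble epoxide hydrolase gene Ephx2 (-2.25) and Acsm2, a medium-chain acyl-CoA synthetase (-2.38), and with M mice 4 and 5 alone these differences were -1.72, -1.80 and -2.15. These 3 and Acsm3, Ephx1, Inmt and Nat2 were DEGs lower in AA than in C, with log2 fold changes from -2.33 (Glyat) to -1.02 (Acsm3). Acsm2 was the only DEG of this list between AA and M, higher in AA by 1.05 on the log2 scale (SE 0.31, limma adjusted p = 0.0343) and by 0.82 against M mice 4 and 5 alone. The medians of this list were -1.11, 0.26 and -1.02.

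Among 14 regulators of these genes, Hnf4a, a nuclear receptor of the proximal tubule, was the only DEG between AA and M. It was at 9.18, 31, 8.51, 24.6 and 25 FPKM in C, 3.8, 0.912, 1.05, 9.37 and 7.6 in M and 11.9, 11.7, 18.5, 12.2 and 18.8 in AA. All AA mice were above all M mice, and the log2 fold change was 1.79 ± 0.47 (SE, limma adjusted p = 0.0195), against 0.69 with M mice 4 and 5 alone, which was not past the fold threshold. Esrra, an orphan receptor of energy metabolism, was the only DEG of this list between AA and C (-2.41 ± 0.46 SE, limma adjusted p = 0.00273). Between M and C none was a DEG by limma, with 4 at an unadjusted p under 0.05. Nfe2l2, which encodes the activator NRF2, was at 3.82 to 10.3 FPKM in C, 4.05 to 17.1 in M and 3.002 to 6.9 in AA and did not pass in any comparison. The medians of the regulators were -0.30, 0.01 and -0.27.

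Markers of cell types moved in the same comparisons, and their part in these results was not tested. Of 15 proximal tubule markers, all were lower in M than in C and 9 were DEGs, with a median log2 fold change of -2.38, and 10 were DEGs lower in AA than in C, with a median of -2.03. Their summed level was 3232 to 13491 FPKM in C, 112 to 616 in M and 240.7 to 615.8 in AA. Between AA and M, 1 of the 15 was a DEG, Acsm2, higher in AA, which also stands in the list of other enzymes. Of 6 collecting duct markers, 3 were DEGs lower than C in M and in AA, and of 5 markers of the thick ascending limb and distal tubule 1 and 2 were. Of 8 macrophage markers, 4 were DEGs higher in M than in C and 5 in AA than in C, where Csf1r was lower, and C1qb was lower in AA than in M. Their summed level was 17.9 to 118.3 FPKM in C, 160.4 to 463.3 in M and 113.3 to 165.3 in AA. Of 6 fibroblast markers, 1, 1 and 5 were DEGs higher in M against C, AA against M and AA against C, with summed levels of 61.6 to 139.6, 121.6 to 423.7 and 262.5 to 454.4 FPKM in C, M and AA. Estimates were lower for 2, 1 and 1 of the 6 in the same comparisons, with Acta2 at -0.50 between AA and C.

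The 7 markers of injured tubules gave 0, 2 and 3 DEGs, all higher, in the same order (Havcr1 and Sox9, joined by Vcam1 between AA and C), with 4 at an unadjusted p under 0.05 in limma between M and C. Estimates were lower for 1, 3 and 1 of the 7 in the same order, with Cryab at -1.27 between AA and C. The mean of Spp1 was 294.6 FPKM in M and 155.7 in AA. Of 6 lymphocyte markers, Cd3e and Cd3g were higher in AA than in M and C, and 0 were DEGs by limma or had an unadjusted p under 0.05 between M and C. Estimates were lower for 4 of 5 tested, 0 of 3 and 3 of 6 in the same order. The log2 fold changes between AA and M against M mice 4 and 5 alone were -1.15 for C1qb, 0.62 for Col1a1, 0.99 for Havcr1 and 0.31 for Sox9, all but that of C1qb under the fold threshold, and 0.68 for Cd3e and 1.22 for Cd3g. No marker was a DEG between M and C with those mice alone, as no gene was. Nphs1 was the only DEG of 4 podocyte markers and Apoa2 of 7 hepatocyte markers, both lower in AA than in C. The 5 endothelial and the 5 adrenal cortex markers held 0 DEGs by limma, with 0 endothelial markers in any comparison and 0, 1 and 2 adrenal markers at an unadjusted p under 0.05. Of the hepatocyte markers, albumin (Alb) was at most 2.56 FPKM in any library, while Ttr was at 4.05 to 12.6 and Serpina1a at 3.42 to 9.64 FPKM in C mice, and the 7 genes summed to 9.04 to 21.1 FPKM in C, 0 to 15.6 in M and 7.54 to 13.1 in AA. The 5 adrenal cortex markers summed to 0.474 to 1.47, 0 to 1.61 and 0.0459 to 2.56 FPKM, with Cyp11b1 at most 0.0285 FPKM in any library.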

How the data were processed

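Per the labels and methods, poly-A RNA of kidney tissue was sequenced in paired ends, trimmed with fastp, aligned to mm10 with HISAT2 2.0.5 and counted with featureCounts 1.5.0-p3, and the authors deposited FPKM values for 54532 genes in 15 libraries, all of which were used. The annotation release is not given in the sources used here. Symbols, biotypes and positions came from GENCODE M21 on GRCm38, in which 37 identifiers were not found. Counts were recovered from the spacing of the FPKM values and the exon lengths, with 97.7 to 99.3% of low values per library within 0.02 of a whole multiple. Even multiples were the commoner, so a step may be 1 read of a pair, a factor of 2 stands unresolved, and no counting intervals were computed.

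Groups were compared in pairs with limma 3.58.1 (R 4.3.3, linear fit and moderated test with an intensity trend) on log2(FPKM + 1), fitting 10 libraries at a time and keeping genes above 0 in 5 or more of those. The pseudocount of 1 understates the change of low genes. DEGs had a Benjamini-Hochberg adjusted p not above 0.05 over the whole table and a log2 fold change of 1 or more in size. Possible sharing of reads was gauged by how many of a gene's 31-base words also occur in other genes. Alternatives were pseudocount, filter, scaling (TPM, mitochondrial genes left out, quantile, centring), all 15 libraries in one fit, a replicate block, quality weights, no trend, protein-coding genes only, M mice 4 and 5 or 1 to 3 alone, and each library left out. C mice 2, 4 and 5 alone were added after seeing the data. Mice 1 to 5 carry a number in each group and the labels do not tie equal numbers together.

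Genes with values are the DEGs of the family in any comparison, the 5 Gst, 2 Mgst, 5 Ugt and 4 Sult genes with the highest mean FPKM, and, of 6 pathway lists, the DEGs plus Gclc, Gclm, Gsr, Ggt1, Ugdh, Papss2, Nfe2l2 and Hnf4a. Gsto1, Gsto2 and Ugt2b1 were added after their values were seen. Of the pathway genes listed, Sts was not matched. The family, lists and tests were chosen with earlier results of these data known. Python 3.11.15, numpy 2.4.6, pandas 2.3.3 and matplotlib 3.10.9 were used.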

Additional observations from a re-analysis of the deposited data

Results flagged for a closer look

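Within each group of 5 mice, the gap between an extreme value and its neighbour was divided by the range of the group (Dixon's ratio), on log2(FPKM + 1), for 57 groups of values, 3 for each of the 19 genes of the family that were DEGs or among the highest by mean FPKM. Chance flags about 1 in 20 such groups, and 7 were found. In the AA group, mouse 2 was the low value of Gstm2 (ratio 0.795) and of Gstt2 (0.741), mouse 1 was the low value of Sult1a1 (0.71, at 0 FPKM) and mouse 3 the high value of Ugt2b5 (0.818). In the M group, mouse 2 was the low value of Sult1a1 (0.713, at 0 FPKM), and mouse 1 was the low value of Sult1c2 (0.755, at 0 FPKM) and the high value of Ugt3a1 (0.872). AA mouse 2 had the second smallest number of fragments outside the mitochondrial genome, after M mouse 2. Leaving out AA mouse 2 kept Gstm2 and Gstt2 among the DEGs between AA and C.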

How the results depend on the processing

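Between AA and C the number of DEGs in the family, 8, was 7 to 9 under every alternative run, libraries left out included, except in TPM, where it was 16 (of all 21898 genes tested, 6785). Between M and C the number, 3, became 1 with a pseudocount of 0.1 (Gstt2), 0 with genes above 0 in any library and 5 with a mean of at least 1 FPKM. It became 14 in TPM (of all 21153 genes tested, 1609), 6 with all 15 libraries in one fit and 5 over protein-coding genes only. Centring gave 4 (of all 21153, 339), with Sult5a1 higher in M and without Gstk1. Quantile normalization gave 3 (of all 21153, 316), with Gstm1 in place of Gstk1. The number between M and C became 0 with M mice 4 and 5 alone (of all 20868 genes tested, 0) and 9 with M mice 1 to 3 alone (of all 17103, 3404). Leaving out a library gave 0 to 5 DEGs in the family and 4 to 954 over all genes. Between AA and M the number, 1, became 2 with a pseudocount of 0.1 (Gsto2 and Ugt2b1 in place of Ugt3a2) and 0 with genes above 0 in any library. It became 0 in TPM (of all 19798 genes tested, 422), 0 without mitochondrial genes (of all 19782, 2157) and 3 with centring (without Ugt3a2, of all 19798, 2813). It became 2 with all 15 libraries in one fit, 3 with quality weights and 0 over protein-coding genes only. It became 3 with M mice 4 and 5 alone (of all 19208 genes tested, 1656) and 4 with M mice 1 to 3 alone (of all 16761, 3744). Quantile normalization kept 1 DEG, Sult5a1 in place of Ugt3a2 (of all 19798 genes tested, 2279). Leaving out a library gave 0 to 2 in the family and 1805 to 2897 over all genes. Numbers over all genes are not given for the pseudocount, filter, one-fit, quality-weight, replicate-block and protein-coding settings. For those, a change in the family cannot be set against the whole table. The causes were not tested. Equal mouse numbers did not deviate together (correlations from -0.127 to 0.218), and with a replicate block the DEGs were 1 (M and C), 0 (AA and M) and 9 (AA and C).

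Signs turned for the following log2 fold changes, which lay more than 1 SE from 0 in the main fit or were DEGs in either fit. With M mice 4 and 5 alone, Ugt2b5 (0.38) and Gsr (-0.033) did so between M and C, and Gstz1 (-0.13), Mgst3 (-0.19), Nfe2l2 (0.11) and Ugdh (0.14) between AA and M. With M mice 1 to 3 alone, Gss became 0.0019 between AA and M. In TPM, Gsr (-0.27) and Slc35b2 (-0.45) turned between M and C, and Gsta2 (-0.43), Sult1c2 (-0.35), Bpnt1 (-0.18) and Gsr (-0.17) between AA and C. With C mice 2, 4 and 5 alone, added after seeing the data, Gsta2 became -0.10 between AA and C. With centring, Ephx2 (-0.046) and Papss2 (-0.11) turned between AA and M. None of these values passed the test under the alternative. Estimates within 1 SE of 0 also changed sign and are not all listed. With M mice 4 and 5 alone, Gstt2 went from 0.032 to -0.79 between AA and M, and Sult1a1 from -0.18 to 0.64 between M and C. A value of 0 says only that no fragment was counted. The number of genes seen did not follow the fragments outside the mitochondrial genome alone, with 18972 genes at 2225755 fragments in AA mouse 2 and 12222 at 2770068 in M mouse 3.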
